A study of Mus musculus with 2 samples.

Results

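Messages of CTCF and of the cohesin complex were measured in E14, a wild-type line of mouse embryonic stem cells that comes from a blastocyst of the 129/Ola background. The 10 genes Ctcf, Smc1a, Smc3, Rad21, Stag1, Stag2, Nipbl, Wapl, Pds5a and Pds5b were taken by symbol, and all 10 were found among the 43629 gene identifiers counted. Polyadenylated RNA was sequenced in duplicate, in 1 library with the age label P33 and 1 with the age label P42. The letter may stand for passage, which the labels do not say. No treatment or other genotype is named for either library, and nothing in the labels says that they came from separate cultures. All values come from 1 cell line. With a single library for each age label, differences between P42 and P33 could not be tested, and intervals show counting error only.

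Cohesin is a ring of the proteins SMC1A, SMC3 and RAD21, to which either STAG1 or STAG2 binds. The loader NIPBL lets the ring travel along chromatin and extrude DNA loops, WAPL and the PDS5 proteins release or restrain it, and the zinc finger protein CTCF stops it at its binding sites, which places the borders of chromatin domains. The same ring holds sister chromatids together from replication until mitosis, and dividing stem cells need both functions.

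Total counts were 40139219 in P33 and 39657578 in P42. Counts were scaled with TMM, the trimmed mean of M values, and 1 CPM (the usual unit of counts scaled to library size) stood for 42.2 counts in P33 and 37.8 in P42. Of 8 pluripotency markers all 8 reached 1 CPM in both libraries, with summed levels of 5339 CPM in P33 and 6526 CPM in P42. Of 8 fibroblast markers 2 did so, the sums were 37.8 and 30.9 CPM, and Postn, Dcn and Lum had no count. Of 6 primitive endoderm markers 5 did so, and the sum was 32.7 CPM in P33 and 107.5 CPM in P42. Neuroectoderm markers summed to 57.6 and 55.1 CPM with 4 of 5 at 1 CPM in both, mesendoderm markers to 3.84 and 7.92 CPM with 1 of 4, and trophectoderm markers to 17.8 and 5.14 CPM with 1 of 4. Such sums can hide markers that went opposite ways. Of the pluripotency markers 6 had a log2 ratio of P42 over P33 above 0, led by Klf4 (1.83) and Sox2 (1.03). The other 2 were below 0, with Pou5f1 lowest (−0.67). Of 4 neuroectoderm markers averaging 1 CPM or more, 3 were above 0, and Neurod1 was far below (−2.76). All 6 primitive endoderm markers were called higher by the 2-fold rule given below, where 5.07% of all genes were. Among them Sox17 owed its mean of 1 CPM or more to the P42 library alone, with 94 counts there against 24 in P33. Of 2 trophectoderm markers averaging 1 CPM or more, both were called lower, Krt7 (−2.60) and Krt8 (−1.57), where 9.54% of all genes were. Krt7 reached that mean only through P33, at 3.61 CPM against 0.583 CPM in P42. The part of these lineage markers in the differences reported here was not tested. In bulk RNA, fewer cells of a type and less RNA per cell cannot be told apart.

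Whether the paralogs of the complex can be counted apart depends on how alike their sequences are. The coding sequences of Stag1 and Stag2 were 71.9% identical over 3710 aligned positions in GENCODE M21, and those of Pds5a and Pds5b 70.9% over 3946. Neither pair shared a run of 50 bases, and the longest identical run was 23 bases in each pair. These runs are shown in capitals within 100 bases of each coding sequence. The windows start at coding position 1109 for Stag1, 1100 for Stag2, 2825 for Pds5a and 2798 for Pds5b, and 76 of 100 bases were identical in the Stag windows and 81 of 100 in the Pds5 windows.
Stag1: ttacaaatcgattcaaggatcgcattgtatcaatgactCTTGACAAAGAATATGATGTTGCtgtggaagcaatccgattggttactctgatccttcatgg
Stag2: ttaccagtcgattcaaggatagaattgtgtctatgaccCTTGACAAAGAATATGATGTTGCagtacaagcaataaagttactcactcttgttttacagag
Pds5a: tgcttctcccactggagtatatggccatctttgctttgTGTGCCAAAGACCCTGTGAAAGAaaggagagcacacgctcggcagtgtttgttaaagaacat
Pds5b: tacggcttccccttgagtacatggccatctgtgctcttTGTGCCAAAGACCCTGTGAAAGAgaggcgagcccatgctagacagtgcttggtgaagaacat
Differences lie on both sides of each shared run. Across all annotated transcripts, 6.55% of the 50-base words of Ctcf also occurred in another gene, all of them in the antisense noncoding gene Gm5914, which had 6 counts in P33 and 1 in P42. Smc3 shared 1.37% of its words with other genes, chiefly with the processed pseudogene Gm11204, and Pds5a shared 1.28%. The other members shared under 1%, and Smc1a, Rad21 and Nipbl shared none.

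RefSeq promoters (GRCm38.p6, 250 bases before to 50 after the gene start) were on hand for 7 of the 10 genes, namely Ctcf, Smc1a, Smc3, Stag1, Wapl, Pds5a and Pds5b. Their GC content ran from 58.3% to 80.3% and their number of CpG dinucleotides from 23 to 55, where the medians over 32851 promoters were 52.7% and 7. The core motif of the zinc finger factor YY1, searched as GCCATNTT on both strands, stood in 4 of the 7 and in 6.05% of all promoters. That motif was chosen after the sequences had been read, and the set of all promoters is poorer in CpG. The promoters of Ctcf (chr8:105636288-105636587, plus strand), Smc3 (chr19:53600146-53600445, plus strand) and Pds5b (chr5:150673577-150673876, plus strand) are shown because they hold the YY1 core in the forward direction. It starts at base 11 after the gene start in Ctcf, at base 1 in Smc3 and 37 bases before the start in Pds5b. Capitals mark the match.
Ctcf: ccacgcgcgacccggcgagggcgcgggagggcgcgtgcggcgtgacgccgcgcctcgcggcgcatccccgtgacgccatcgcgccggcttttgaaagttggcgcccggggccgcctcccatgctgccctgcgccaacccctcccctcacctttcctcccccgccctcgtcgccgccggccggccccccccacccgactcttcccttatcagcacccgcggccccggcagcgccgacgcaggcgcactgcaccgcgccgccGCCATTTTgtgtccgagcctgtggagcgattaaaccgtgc
Smc3: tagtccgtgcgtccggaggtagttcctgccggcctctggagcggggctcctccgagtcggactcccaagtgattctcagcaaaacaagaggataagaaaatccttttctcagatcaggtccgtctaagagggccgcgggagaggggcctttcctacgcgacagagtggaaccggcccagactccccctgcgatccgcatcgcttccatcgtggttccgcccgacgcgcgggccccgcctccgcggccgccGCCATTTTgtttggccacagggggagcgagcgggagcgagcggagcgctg
Pds5b: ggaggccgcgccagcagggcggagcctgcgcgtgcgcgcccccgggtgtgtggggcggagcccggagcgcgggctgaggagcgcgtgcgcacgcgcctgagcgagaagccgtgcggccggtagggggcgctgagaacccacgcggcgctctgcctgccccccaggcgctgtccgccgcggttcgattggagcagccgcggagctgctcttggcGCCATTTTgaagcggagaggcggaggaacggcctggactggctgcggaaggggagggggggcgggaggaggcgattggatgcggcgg
The fourth match, in Stag1, lies on the opposite strand. Gene starts here are those of RefSeq, which can differ from those of the GENCODE gene models used for lengths. The GENCODE gene of Stag1 starts at chr9:100597798, outside its promoter window at chr9:100643198-100643497. That of Pds5b starts at chr5:150673739, so the Pds5b match lies inside that gene. The GENCODE gene of Ctcf starts at chr8:105636568, so the Ctcf match lies before it. For Smc3 the GENCODE start, chr19:53600398, falls within the match. A match is a description of letters, and binding was not measured.

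All 10 genes were detected in both libraries, each above 68.9% or more of detected genes in level per length, with Rad21 highest. Levels between genes are given in RPKM, which is CPM divided by kilobases of merged exons. Rad21, the subunit that closes the ring, stood at 162.1 RPKM in P33 and 161.5 RPKM in P42, above 97.5% of the 13017 genes detected at 1 CPM in both libraries. Smc3, a long coiled-coil ATPase of the ring, was at 77.3 and 90.5 RPKM (83.9 ± 9.32, SD, n = 2). Its partner Smc1a, on the X chromosome, was at 42.9 and 50.2 RPKM (46.5 ± 5.21, SD, n = 2). The ATPase genes thus stood at different levels within each library, and their ratio, Smc1a over Smc3, was 0.555 in P33 and 0.555 in P42. Rad21 over Smc3 was 2.10 in P33 and 1.79 in P42 by merged exons, and 3.07 and 2.61 by coding length. Such ratios within a library do not depend on the scaling between libraries, but their size rests on the length used.

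The STAG subunits, which link the ring to CTCF and other partners, were lower than the ring per length. Stag2 stood at 17.2 RPKM in P33 and 18.6 RPKM in P42 (17.9 ± 0.976, SD, n = 2). Stag1 stood at 11.2 and 16.4 RPKM (13.8 ± 3.68, SD, n = 2), with the P42 library higher. Together they amounted to 0.175 of the Rad21 level in P33 and 0.216 in P42 by merged exons, and 0.256 and 0.325 by the longest transcript. Their order rests on the length used. Stag2 made up 60.7% of the pair in P33 and 53.2% in P42 per base of merged exons, but 52.1% and 44.5% by the length of the longest transcript. In read counts it was 52.0% in P33 (51.1 to 52.9, exact Clopper-Pearson 95% interval) and 44.4% in P42 (43.5 to 45.2). The share was lower in P42. Its direction cannot depend on the length used, since each measure rests on the same counts. The intervals, which cover counting error only, did not overlap. The merged exons of Stag1 span 11781 bases against 6186 in its longest transcript, so the merged length includes many bases absent from that transcript.

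Among regulators of the ring, Wapl, which opens it and takes it off chromatin, was the most abundant at 68.7 RPKM in P33 and 86.3 RPKM in P42 (77.5 ± 12.5, SD, n = 2). The loader gene Nipbl stood at 37.3 RPKM in P33 and 18.6 RPKM in P42 (27.9 ± 13.2, SD, n = 2), the widest gap of the 10. Pds5a, whose protein binds the ring together with WAPL, was at 19.3 and 19.1 RPKM (19.2 ± 0.163, SD, n = 2). Pds5b, its paralog, was at 15.2 and 16.6 RPKM (15.9 ± 0.996, SD, n = 2). Pds5b made up 44.1% of the Pds5 pair in P33 and 46.6% in P42 by merged exons, and 32.6% and 34.8% by the longest transcript. In read counts it was 28.6% in P33 (28.1 to 29.2, exact Clopper-Pearson 95% interval) and 30.7% in P42 (30.1 to 31.4). Pds5a was thus the larger part of the pair in both libraries under each length. Ctcf stood at 40.1 RPKM in P33 and 49.0 RPKM in P42 (44.5 ± 6.32, SD, n = 2), above 89.3% of detected genes. Ctcf over Rad21 was 0.247 in P33 and 0.304 in P42 by merged exons, and 0.297 and 0.365 by the longest transcript.

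**Figure D1:**
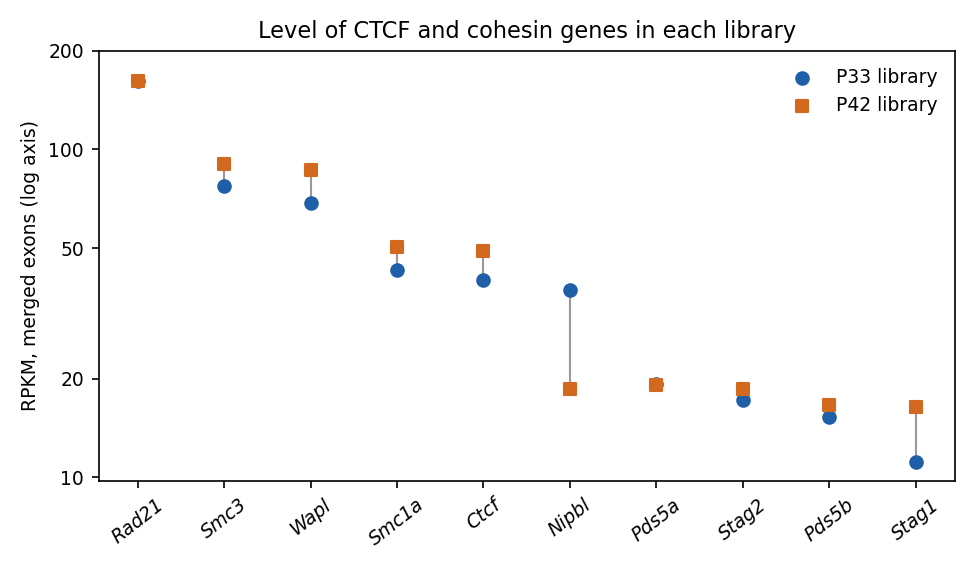
RPKM per merged exon length (log axis) of the 10 genes in the P33 library (circles) and the P42 library (squares), ordered by mean, with a line joining the 2 values of a gene. Rad21 is highest at 162.1 and 161.5 RPKM, and Nipbl shows the widest gap, from 37.3 to 18.6 RPKM.

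In order of mean RPKM the genes were Rad21, Smc3, Wapl, Smc1a, Ctcf, Nipbl, Pds5a, Stag2, Pds5b and Stag1. Neighbours not separated by their ranges over the 2 libraries were Smc3 and Wapl, Smc1a and Ctcf, Nipbl and Pds5a, and Pds5b and Stag1. Within each library, though, Smc3 stood above Wapl, Smc1a above Ctcf and Pds5b above Stag1 by merged exons. The ranks were the same in both libraries for Rad21, Smc3, Wapl, Smc1a, Ctcf, Pds5b and Stag1, while Nipbl moved from rank 6 in P33 to rank 8 in P42. By the longest transcript Rad21, Smc3 and Wapl kept the top 3 ranks, and Pds5a, at 41.5 CPM per kilobase, took rank 6. The merged exons of Pds5a span 19335 bases against 8934 in its longest transcript. By coding length Rad21 was again first, Wapl passed Smc3 to rank 2, Smc1a took rank 6, Stag1 rank 7 and Nipbl rank 10, so the order below Rad21 rests in part on the length used.

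**Figure D2:**
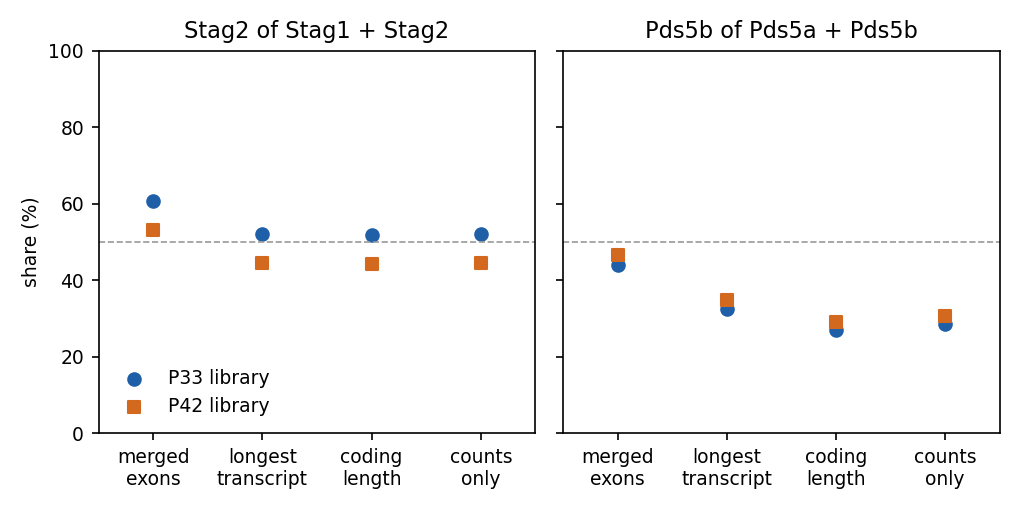
Share in percent of Stag2 in the sum of Stag1 and Stag2 (left) and of Pds5b in the sum of Pds5a and Pds5b (right), by the length used, in the P33 library (circles) and the P42 library (squares), with a dashed line at equal shares. Stag2 lies at 60.7% and 53.2% by merged exons and near equality by the other measures, and Pds5b lies under the line by all of them.

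Between the libraries most of these genes differed little, and Nipbl was the exception. Nipbl had 14796 counts in P33 and 6601 in P42, a log2 ratio of P42 over P33 of −1.01 (−1.05 to −0.96, 95% counting interval), or 0.498 of the P33 level (0.484 to 0.513). A gene was called when it differed at least 2-fold at a mean of at least 1 CPM and its interval left out equality. By this rule 1 of the 10 genes was called, Nipbl, as lower in P42, where 14.6% of all 13737 genes tested were called in either direction, 5.07% as higher and 9.54% as lower. Read against that background, 1 of 10 is a share near that of all genes. The interval of Nipbl includes the 2-fold threshold. At 1.5-fold Nipbl remained the only gene of the 10 called, where 35.0% of all genes were called and 18.9% were called lower. Among the 1402 genes whose mean CPM lay in the range of the 10 genes, a background added after the values were seen, 5.78% were called at 2-fold, 1.71% were called lower at 2-fold, and 24.0% were called at 1.5-fold.

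The 9 other genes had log2 ratios between −0.02 and 0.55. Stag1 was the highest, with 5548 counts in P33 and 7283 in P42 and a ratio of 0.55 (0.50 to 0.60). Wapl followed at 0.33 (0.30 to 0.36), Ctcf at 0.29 (0.25 to 0.33), Smc1a at 0.23 (0.19 to 0.27) and Smc3 at 0.23 (0.20 to 0.26). Smaller ratios were those of Pds5b at 0.13 (0.08 to 0.18) and Stag2 at 0.11 (0.06 to 0.16), which were −0.01 and −0.03 when libraries were scaled by total counts. For Rad21, with 28911 and 25814 counts, the ratio was −0.00 (−0.03 to 0.02), and for Pds5a, with 15735 and 13929 counts, −0.02 (−0.05 to 0.02). The interval of each of these 2 genes holds equality. The median absolute log2 ratio was 0.23 over the 10 genes and 0.41 over all genes tested, many of which are less abundant.

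Nipbl and its antagonist Wapl had log2 ratios of opposite sign, −1.01 and 0.33. The Wapl ratio was 0.19 with total counts. It was 0.09 with the trend on GC content and length removed and 0.09 with the chromosome median removed, as described below. By the same 3 settings Nipbl stood at −1.15, −1.17 and −0.44. The ratio of Nipbl to Wapl per length was 0.542 in P33 and 0.215 in P42 by merged exons, and 0.331 and 0.131 by coding length. Mau2, which encodes the partner of NIPBL in the loader, stood at 6.42 RPKM in P33 and 4.18 RPKM in P42, with a log2 ratio of −0.62 (−0.71 to −0.52), so it was lower in P42 without reaching 2-fold. Nipbl to Mau2 was 5.81 in P33 and 4.44 in P42 by merged exons. It was 3.41 and 2.61 by the longest transcript and 1.39 and 1.06 by coding length. Its size thus rests on the length used, while lengths cancel in its change between the libraries, so that change is the same under any length.

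**Figure D3:**
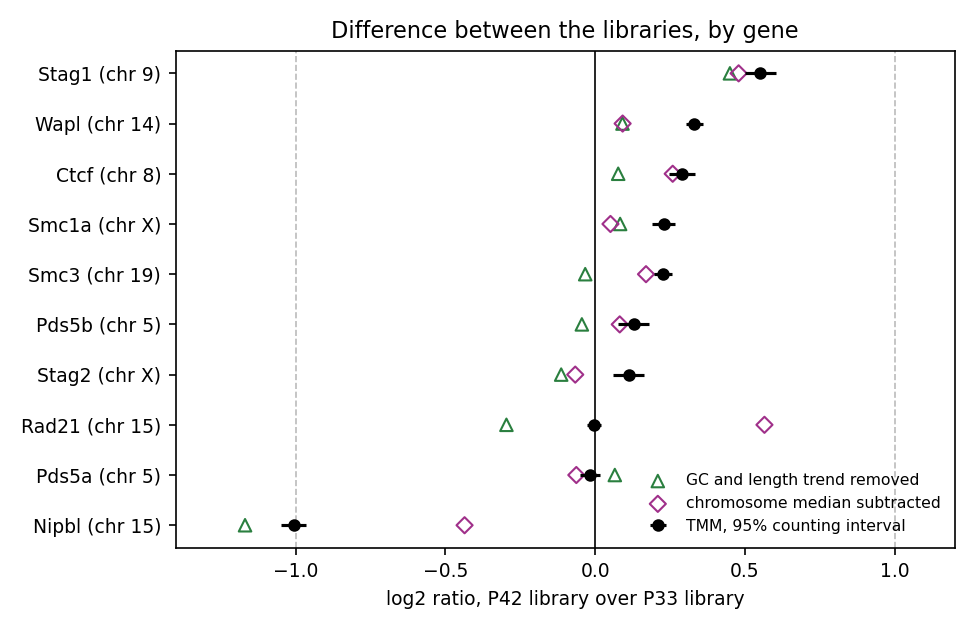
Log2 ratio of the P42 library over the P33 library for each gene (filled circles with 95% counting intervals), with the ratio after removal of the trend on GC content and length (triangles) and after subtraction of the median of its chromosome (diamonds). Dashed lines mark 2-fold. Nipbl lies at −1.01, −1.17 and −0.44 by the 3 measures, and Rad21 at −0.00, −0.30 and 0.56.

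Position on the chromosome moved with the Nipbl result. Nipbl (chr15:8290617-8444463, minus strand, mm10) and Rad21 (chr15:51962240-51991747, minus strand) lie on chromosome 15, where the median log2 ratio over 428 genes averaging 5 CPM or more was −0.57, the lowest of 21 chromosomes (the mitochondrial one included) with at least 5 such genes, and 15.7% of genes were above 0. Among genes averaging 1 CPM or more, 30.6% of 539 genes of chromosome 15 were called lower, against 8.68% of 13198 genes of the other chromosomes. After subtraction of the chromosome median Nipbl stood at −0.44 and was no longer called. Within 5 Mb on either side of it, 40 genes were tested with a median of −0.26, and 4 of them had a lower ratio than Nipbl. Rad21 stood at 0.56 above its chromosome median, and of 17 genes tested within 5 Mb of it, with a median of −0.56, 13 had a lower ratio. Among the 539 chromosome 15 genes, 161 lay below Nipbl and 447 below Rad21. Hence Nipbl lay within the lower range of its chromosome and Rad21 in the upper. The part of the chromosome in the Nipbl ratio was not tested.

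The medians of the chromosomes of the other members lay between 0.03 and 0.24. They were 0.03 for chromosome 8 (Ctcf), 0.05 for chromosome 5 (Pds5a and Pds5b), 0.06 for chromosome 19 (Smc3), 0.07 for chromosome 9 (Stag1), 0.18 for the X chromosome (Smc1a and Stag2) and 0.24 for chromosome 14 (Wapl). After subtraction Stag1 kept a ratio of 0.48, Ctcf one of 0.26 and Smc3 one of 0.17, while Wapl was at 0.09, Smc1a at 0.05 and Stag2 at −0.07.

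**Figure D4:**
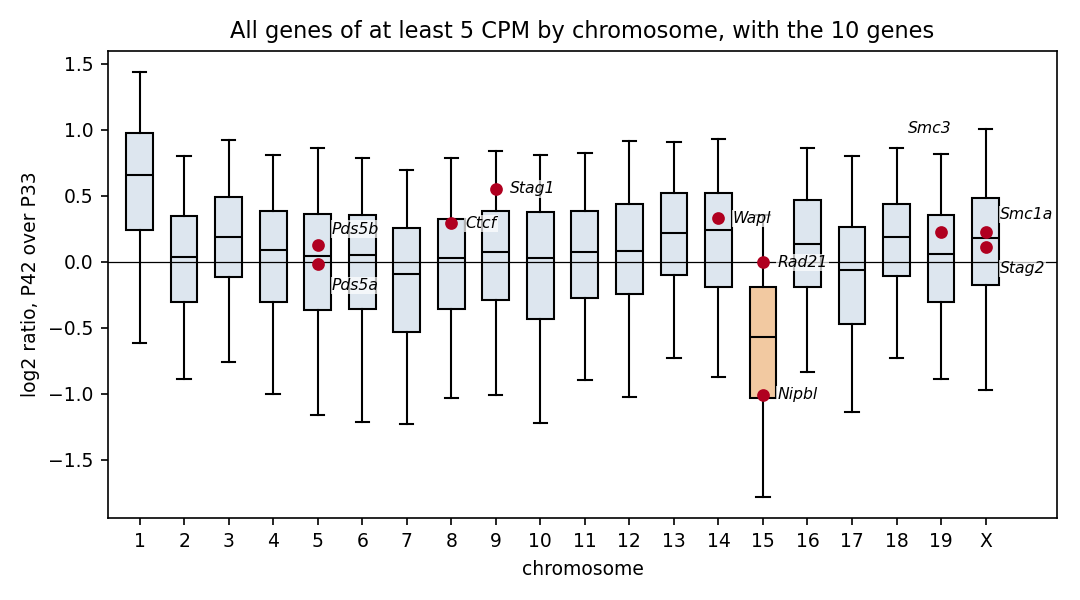
Log2 ratio of P42 over P33 for all genes averaging 5 CPM or more, by chromosome (boxes: quartiles and median, whiskers: 5th and 95th percentiles), with chromosome 15 shaded and the 10 genes as points. Chromosome 15 has a median of −0.57, with Nipbl at −1.01 near the lower edge of its box and Rad21 at −0.00 above its box.

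The ratio also moved with base composition. Across genes, which are not replicates, Spearman's rho between the log2 ratio and transcript GC content was −0.39, and the median ratio went from 0.33 in the lowest of 10 equal bins of GC content to −0.48 in the highest. The longest transcripts of the 10 genes had GC contents from 38.1% (Stag2) to 46.9% (Smc1a), in the range where the median ratio was above 0. With the trend on GC content and exon length removed, the 10 genes had a median of 0.02, with 5 above 0 and 5 below. The modest positive ratios then shrank to 0.09 for Wapl, 0.08 for Smc1a, 0.08 for Ctcf and −0.03 for Smc3. Stag1 remained at 0.45, Nipbl stood at −1.17, and Rad21 moved to −0.30. At 1.5-fold with the trend removed Nipbl was again the 1 gene of the 10 called, where 28.4% of all genes were called.

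Other genes that serve the cohesin cycle were also expressed. Of the 5 genes for loading, acetylation and maintenance, all 5 were detected in both libraries and none was called, with a median log2 ratio of 0.28 beside 0.04 over all genes tested, which became 0.03 beside −0.01 once the trend on GC content and length was removed. The acetyltransferase gene Esco2, which acts in S phase, led at 42.6 RPKM in P33 and 51.9 RPKM in P42, followed by Cdca5, which encodes the WAPL antagonist sororin, at 38.2 and 46.0 RPKM. Esco1 was at 9.90 and 12.8 RPKM. Of the 8 genes that protect or cleave cohesin at mitosis, 1 was called lower and none higher. Over all genes 9.54% were called lower and 5.07% higher. The median of the 8 was 0.30, or 0.08 with the trend removed. The most abundant were Bub1 at 44.0 and 79.0 RPKM, Plk1 at 50.7 and 45.5 RPKM, and Sgo2a, a protector of centromeric cohesin, at 24.3 and 39.3 RPKM. The gene called lower was Espl1, which encodes separase, the protease that cuts RAD21, at 28.3 and 13.9 RPKM with a ratio of −1.03 (−1.08 to −0.98). Espl1 lies on chromosome 15, and its call was lost after removal of the GC and length trend, at −0.62, and of the chromosome median, at −0.46. Its inhibitor securin, encoded by Pttg1, stood the other way at 0.97 (0.88 to 1.05), under the 2-fold rule. With the GC and length trend removed Pttg1 was at 0.63.

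Subunits known from germ cells were present beside the mitotic ones. Stag3, the STAG protein of meiotic cohesin, stood at 16.9 RPKM in P33 and 27.5 RPKM in P42, which made it 37.3% and 44.0% of the per-length sum of Stag1, Stag2 and Stag3. Smc1b, the meiotic paralog of Smc1a, was at 12.3 and 4.59 RPKM, or 22.3% and 8.38% of the sum of Smc1a and Smc1b. It was called lower, its log2 ratio being −1.42 (−1.55 to −1.30). The meiotic kleisin gene Rec8 was at 3.89 and 6.17 RPKM, and Rad21l had 7 counts in P33 and 0 in P42, which allows a level of up to 0.0794 CPM (3 counts). Together they took 1.66% and 2.58% of the read counts of the 3 kleisin genes with Rad21, where Stag3 took 26.1% and 31.2% of those of the Stag genes. Of the 4 germ cell genes, 3 averaged 1 CPM or more. Of these Smc1b was called lower and none higher, where 9.54% of all genes were called lower and 5.07% higher. The log2 ratios were 0.67 for Rec8 and 0.70 for Stag3. Smc1b lies on chromosome 15, and with the median of that chromosome removed it stood at −0.85 and was no longer called.

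All genes listed for related complexes that also fold chromosomes were detected in both libraries. Of 8 condensin genes 1 was called lower and none higher, where 9.54% of all genes were called lower and 5.07% higher. The median of the condensin genes was 0.18, or 0.02 with the trend removed. Smc4 at 74.5 and 95.1 RPKM and Smc2 at 74.8 and 77.1 RPKM, the condensin ATPases, were near the level of Smc3, and Ncapd2 was at 59.7 and 44.5 RPKM. Ncaph2, the kleisin of condensin II, was called lower at 54.7 and 26.8 RPKM, a ratio of −1.03 (−1.08 to −0.98). Its call was lost as well, at −0.79 with the GC and length trend removed and at −0.46 with the median of chromosome 15 removed. It overlaps Sco2 on the opposite strand over 19.7% of its exon bases. Of 7 SMC5/6 and Smchd1 genes none was called, with a median of 0.40, or 0.33 with the trend removed. Nsmce1 at 30.3 and 38.9 RPKM, Nsmce4a at 24.1 and 40.0 RPKM and Smc5 at 25.0 and 28.3 RPKM were the most abundant.

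Of 9 genes for the CTCF paralog and for partner or looping factors, 2 were called lower and none higher. Over all genes 9.54% were called lower and 5.07% higher. The median of the 9 was −0.03, or 0.36 with the trend removed. Maz, a zinc finger factor, stood at 45.3 and 41.5 RPKM, Ldb1, which bridges enhancers and promoters, at 24.0 and 25.2 RPKM, and Yy1 at 17.2 and 22.8 RPKM. Ctcfl, the germ cell paralog of Ctcf, had 136 counts in P33 and 23 in P42, a ratio of −2.38 (−3.11 to −1.76). It made up 2.44% of the per-length sum with Ctcf in P33 and 0.385% in P42. The other gene called lower was Adnp, with 116 and 50 counts and a ratio of −1.05 (−1.56 to −0.57). Adnp shares 82.1% of its exon bases with the gene Gm20716 on the same strand, so its count is uncertain.

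Over the 10 genes and these 6 lists, 50 of 51 genes had a mean of at least 1 CPM, 6 were called lower and 0 higher, where 9.54% of all genes were called lower and 5.07% higher. Chromosome 15 held 6 of the 50, and 4 of these were called lower, namely Nipbl, Espl1, Smc1b and Ncaph2, while Rad21 and Nsmce2, at −0.06, were not, where 30.6% of all genes of that chromosome were called lower. The other chromosomes held 44, of which Ctcfl and Adnp were called, where 8.68% of all genes there were called lower. Ctcfl, at 0.609 CPM in P42, reached the minimum mean only through P33. With the GC and length trend removed 4 of the 50 were called lower, Nipbl, Smc1b, Ctcfl and Adnp, and with the chromosome median removed 2, Ctcfl and Adnp. Ratios of cell cycle genes are given beside these since cohesin genes serve replication and mitosis. Of 11 G1/S genes 2 were called higher, Mcm6 at 1.06 (1.03 to 1.08) and Ccne2 at 1.12 (1.00 to 1.24), with a median of 0.47. Both calls were lost after removal of the GC and length trend, at 0.86 and 0.74, and the median was 0.24, and with total counts they were lost at 0.91 and 0.98. With the chromosome median removed Mcm6 stood at 0.40 and Ccne2 was still called at 1.03. Mcm6 and Mcm3 lie on chromosome 1, whose median of 0.66 was the highest of the 21 chromosomes, with 85.1% of its genes above 0. Mcm3, Mcm6 and Mcm4 were the most abundant, with means of 173.1, 166.5 and 165.0 RPKM. Of 11 G2/M genes none was called, with a median of 0.10 (0.02 with the trend removed and −0.04 with total counts), led by Top2a, Bub1b and Ccnb1 with means of 161.7, 104.1 and 100.4 RPKM. The part of the cell cycle in the ratios of the 10 genes was not tested.

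**Figure D5:**
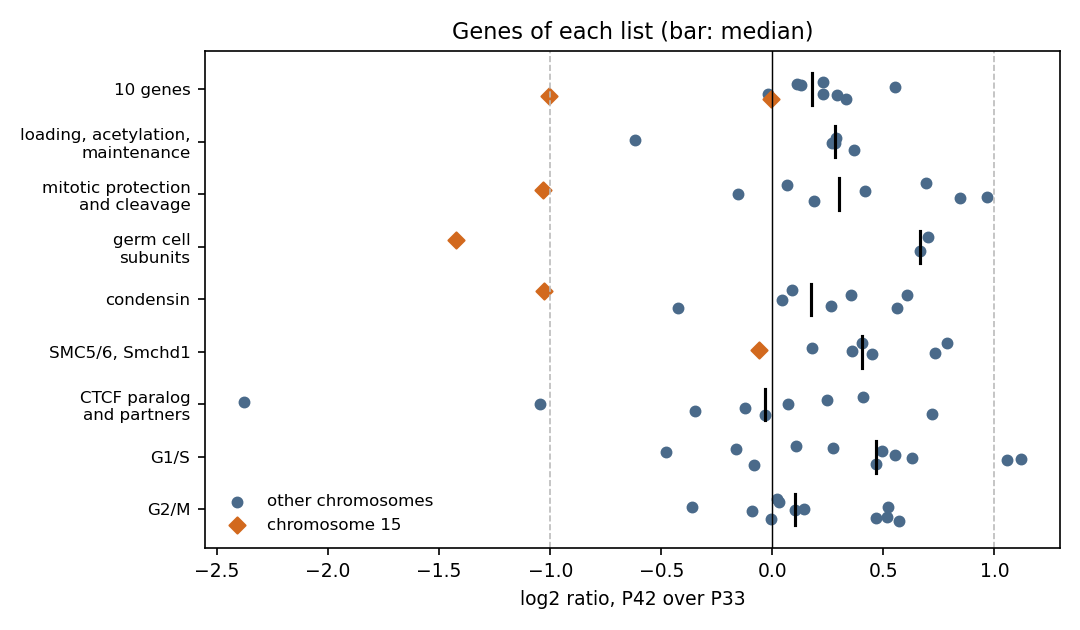
Log2 ratio of P42 over P33 for the 10 genes and for each list, 1 point per gene averaging 1 CPM or more, genes of chromosome 15 as diamonds, with a bar at the median and dashed lines at 2-fold. Of the 6 chromosome 15 genes 4 lie beyond the lower 2-fold line, and Rad21 and Nsmce2 lie near 0.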

How the data were processed

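Polyadenylated RNA of 2 wild-type libraries was measured. For each library the authors deposited raw counts by Ensembl identifier, with no scaling. The tools listed in the submitters' processing notes are featureCounts 1.4.5-p1 and STAR 2.4.2a, with the mm10 build. Per the labels the protocol was reverse-stranded. Which annotation was counted, and how strand and multiply mapping reads were handled, is not given in the sources used here. Of 43629 identifiers 42548 were matched to GENCODE M21 (GRCm38, the same assembly), and unmatched identifiers took 0.155% (P33) and 0.174% (P42) of counts.

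TMM factors came from edgeR 4.0.16, and levels are CPM or RPKM on merged exons. The log2 ratio used a prior count of 0.5. Exact Clopper-Pearson 95% intervals treat each count as independent and cover counting error only, so PCR copies may make them too narrow. With 1 library per age label no test was made. Alternatives were scaling by total counts or by DESeq2 1.42.0 size factors, a prior count of 2, other thresholds and lengths, subtraction of chromosome medians, and removal by lowess (span 0.3, statsmodels 0.14.6) of the trend on GC content and on exon length. The calculation of ratios and calls was checked on simulated data with Poisson counting error only. That is the error the intervals assume, so the check cannot show whether they are wide enough for real libraries.

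The members, lists and alternatives were chosen with earlier results of these data known. Named genes were the 10 members and, from each list, the 3 of highest RPKM and those called at 2-fold. No gene was named for likeness of pattern, since 2 libraries give 1 difference per gene. Other genes named, among them Mau2, Pttg1, Rad21l and Nsmce2, were chosen after their values were seen. Python 3.11.15, scipy 1.17.1 and biopython 1.88 were used, the last for the coding sequence alignments.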

Additional observations from a re-analysis of the deposited data

How the results depend on the processing

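The call of Nipbl as lower in P42 held with DESeq2 size factors at −1.01, total counts at −1.15, a prior count of 2 at −1.01 and the GC and length trend removed at −1.17. It was lost with the chromosome median removed and at a 3-fold threshold, where 0 genes of the 10 were called lower. No gene of the 10 was called higher under any of these settings. The sign of the ratio changed for Stag2 and Pds5b with total counts, for Smc3, Stag2, Pds5a and Pds5b with the GC and length trend removed, and for Rad21 and Stag2 with the chromosome median removed. Total counts lowered every ratio by 0.14, so that the median over all genes was −0.10 in place of 0.04, and made lower genes 77.9% of all genes called in place of 65.3%.

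Over all genes, 697 were called higher and 1310 lower. The numbers were 2207 and 2600 at 1.5-fold, 147 and 525 at 3-fold, 425 and 665 at a minimum mean of 5 CPM, and 1080 and 2348 with no minimum. With the chromosome median removed 462 were called higher, and 1354 lower. The Stag2 share, 56.9% as the mean of both libraries by merged exons, was 48.2% by the longest transcript, 48.0% by coding length and 48.2% with no length scaling, and 53.2% to 60.7% in single libraries. The Pds5b share, 45.3%, was 33.7%, 28.0% and 29.7% by the same measures and 44.1% to 46.6% in single libraries. No paired analysis was possible because the labels hold 1 group. A ratio needs both libraries, so none could be left out of it.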
